A study of Mus musculus with 3 samples.

Results

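The transcription factors that lay down and maintain lung cell lineages were compared across a cultured mouse lung adenocarcinoma line and whole mouse lung. The set was Nkx2-1, Foxa1, Foxa2, Foxp2, Gata6, Sox2, Sox9, Hopx, Tbx5 and Cebpa, taken as the array rows whose platform annotation gives 1 of these symbols. All 10 were found, each through 1 probe set, among 22180 genes named on the array. FULA 1 cells, a mouse lung adenocarcinoma line, were grown in DMEM with 10% fetal bovine serum at 37 °C and 5% CO2. The other RNAs came from lung of FVB mice, an inbred albino strain, either given saline or taken 1 week after intraperitoneal urethane, a carcinogen that induces lung tumours in mice. There was 1 array per group, so no difference below has a replicate check, an error or a test. The labels state neither the number of mice behind each lung RNA nor the time of the saline lung.

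These factors act in sequence and in layers. NKX2-1 marks the lung field in the foregut and later keeps alveolar and airway epithelium in its differentiated state, while the pioneer factors FOXA1 and FOXA2 and the zinc finger factor GATA6 open and occupy the same epithelial enhancers. SOX2 marks the proximal airway and SOX9 the growing distal tips, CEBPA and HOPX act in alveolar differentiation, FOXP2 in distal epithelium, and TBX5 in the mesenchyme around the lung buds. In mouse lung adenocarcinoma NKX2-1 is known to hold back a gastric programme that FOXA1 and FOXA2 can drive.

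Promoter sequence was matched for 6 of the 10 genes by symbol, from RefSeq on the GRCm38.p6 assembly, as 9 windows of 300 bases that run from 250 bases before to 50 bases after an annotated start. Of these, 3 are printed because the expression results below turn on their genes: Foxa1, higher by the 2-fold rule on FULA 1 than on either lung, Nkx2-1, which lies on the same chromosome and was placed lower, and Hopx, with the greatest difference between the cell line and saline lung. The windows are chr12:57546062-57546361 for Foxa1, chr12:56536859-56537158 for Nkx2-1 and chr5:77095218-77095517 for 1 of the starts of Hopx, all on the minus strand and printed 5′ to 3′ along the gene. Capitals mark matches to motifs searched on both strands.
Foxa1: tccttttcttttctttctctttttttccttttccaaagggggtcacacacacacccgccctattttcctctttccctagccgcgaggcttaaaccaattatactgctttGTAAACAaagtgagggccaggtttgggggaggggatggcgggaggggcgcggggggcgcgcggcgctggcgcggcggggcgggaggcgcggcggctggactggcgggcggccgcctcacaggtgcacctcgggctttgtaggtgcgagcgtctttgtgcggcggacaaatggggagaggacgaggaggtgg
Nkx2-1: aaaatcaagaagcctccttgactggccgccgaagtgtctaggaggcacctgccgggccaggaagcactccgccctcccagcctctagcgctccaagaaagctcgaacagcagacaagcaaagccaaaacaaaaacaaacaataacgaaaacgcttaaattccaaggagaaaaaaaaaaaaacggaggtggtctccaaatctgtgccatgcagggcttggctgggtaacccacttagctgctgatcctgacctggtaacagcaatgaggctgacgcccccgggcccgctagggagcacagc
Hopx: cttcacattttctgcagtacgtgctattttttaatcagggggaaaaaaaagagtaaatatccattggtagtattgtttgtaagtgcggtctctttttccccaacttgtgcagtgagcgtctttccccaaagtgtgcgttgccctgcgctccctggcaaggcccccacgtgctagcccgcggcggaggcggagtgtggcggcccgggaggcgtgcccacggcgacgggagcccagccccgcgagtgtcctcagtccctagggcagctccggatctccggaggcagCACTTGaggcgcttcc

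Motifs were searched for 5 families of factors. The forkhead letters TGTTTAC occur in 3.65% of 32851 RefSeq promoter windows of this length, and Foxa1 was the only member among the 6 to hold them, as GTAAACA on the printed strand, beginning at position -141 from the start. The NKX2 letters CAAGTG, present in 13.6% of windows, occurred in the printed Hopx window, as CACTTG from position 34 after the start. The letters AGATAA of the GATA motif (11.2% of windows) were found in 1 window of Foxa2. The letters TTGCNNAA of the CEBP motif (10.8%) were found in that of Sox2. The SOX letters ACAATG (12.6%) were in 0 of the 9 windows, and the Nkx2-1 window printed above held none of the 5 motifs. No match overlapped another. Foxa1 had the highest observed over expected CpG ratio of the 9 windows, at 0.929, with 62.3% G or C. The values were 0.559 and 53.7% for Nkx2-1, and the medians over all windows were 0.384 and 52.7%. These are descriptions of letters in short windows, with no binding measured.

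The deposited columns were not on a common scale. The median was 4.96 for FULA 1, against 0.08 and 1.22 for the saline and urethane lungs, so each gene is given first by its percentile among the 22180 genes of its own array, which no rescaling that keeps the order can move, and then by a log2 value after quantile normalisation of the 3 arrays. The 95th percentile of 1105 olfactory receptor genes, genes of the nasal sensory epithelium, served as a background mark and lay at percentile 41.8, 50.5 and 51.1 of the genes in the same array order. A difference was counted as higher or lower when it reached 2-fold and the higher value was at or above 2.37, the median of all gene values. Across genes the Spearman correlation was 0.932 between the lungs, and 0.743 and 0.771 between FULA 1 and saline or urethane lung, as a description of libraries whose genes are not independent. The labels were set against markers. All 8 pan-epithelial genes were above the mark on FULA 1 and 7 on each lung. On FULA 1, 12913 of all 22180 genes were above it. Against saline lung 4 of the 8 were higher by the rule and 1, Cldn7 at -2.23, was lower, beside all-gene shares of 22.6% and 22.0%. Epcam differed by -0.51 from saline and -1.28 from urethane lung, signs kept in 3 of 4 other scalings. The alveolar type II genes Sftpc and Sftpb, encoding surfactant proteins, lay at percentile 48.4 and 50.6 on FULA 1, against 99.9 and 99.7 on both lungs. Of 12 type II genes, Sftpc and Sftpb among them, 9 were above the mark on FULA 1 and 12 on each lung. Scgb1a1, the club cell secretory protein, lay at 16.0 on FULA 1 and 99.9 on both lungs.

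The question put to FULA 1 against saline lung was which lineage factors a lung adenocarcinoma line holds at the level of the organ it came from. Hopx and Tbx5 were under the background mark in the cells and above it in lung, Foxa1 was higher in the cells, and Nkx2-1, Foxa2, Sox2 and Cebpa were lower on the normalised scale, by between 1.19 and 1.62 log2 units. By the 2-fold rule, 1 of the 10 members was higher in FULA 1 and 6 were lower. The same rule placed 22.6% of the 13590 genes past the floor higher and 22.0% lower. The median difference over the 10 members was -1.37, against -0.11 over all 22180 genes. This split depended on the scale: with arrays only shifted to a common median, 3 members were higher and 2 lower, and the all-gene counts went from 3073 higher and 2994 lower to 7058 and 1785. Foxp2 was the only member that did not pass the floor. FULA 1 is a single line in culture and lung a mixture of cells, so tumour state, culture and cell composition cannot be told apart, and in lung RNA fewer cells of a type cannot be told apart from less RNA per cell.

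Against urethane lung, the cell line had 2 members higher by the rule, Foxa1 and Sox9, and 6 lower, Nkx2-1, Foxa2, Sox2, Hopx, Tbx5 and Cebpa. The background shares were 22.1% higher and 19.5% lower of 13264 genes, and the median over the 10 members was -1.32, against -0.08 over all genes. The FULA 1 array is common to both comparisons, so their likeness is not independent support. With arrays only shifted to a common median, 3 members were higher, Foxa1, Gata6 and Sox9, and 2 lower, Hopx and Tbx5. The all-gene counts went from 2930 higher and 2581 lower to 7154 and 1558.

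**Figure D1:**
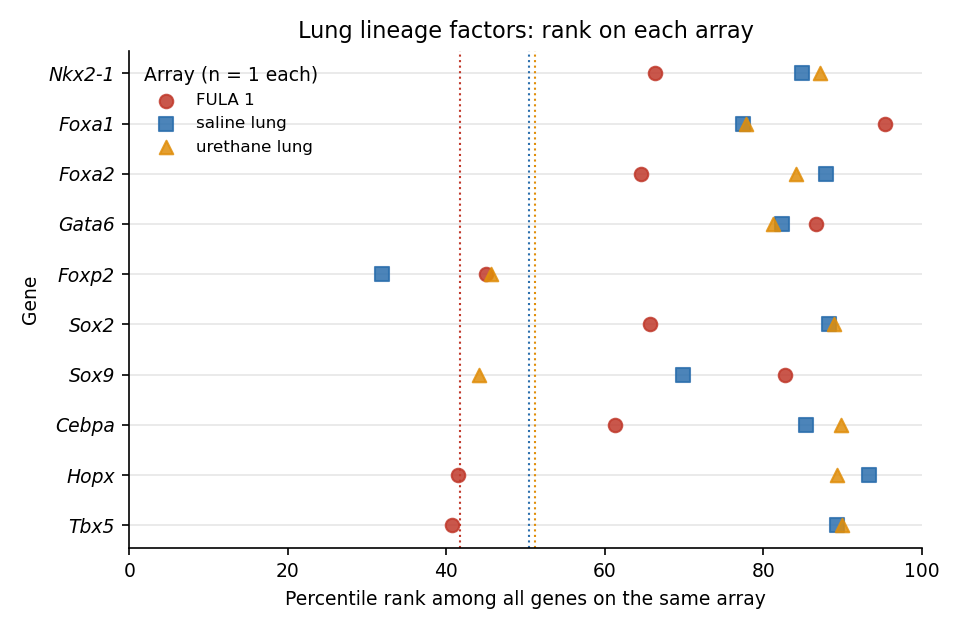
Percentile of each of the 10 genes among 22180 genes on its own array (horizontal axis, percent), 1 row per gene, with a circle for FULA 1, a square for saline lung and a triangle for urethane lung, no replicates, and dotted lines at the olfactory mark of each array in its colour. Foxa1 sits at 95.4 on FULA 1 and under 80 on both lungs, whereas Hopx and Tbx5 sit at 41.5 and 40.7 on FULA 1 and at or above 89.3 on both lungs.

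Nkx2-1 encodes the homeodomain factor that defines lung epithelium. Its percentile was 66.3 on FULA 1, 84.9 on saline lung and 87.2 after urethane, and the normalised values were 3.19, 4.37 and 4.59. All 3 were above the background mark, with the cell line the lowest of them. The difference was -1.19 against saline lung and -1.41 against urethane lung. Under 4 other scalings the difference from saline lung ran from -1.66 to 0.12, so its sign turned when arrays were only shifted to a common median.

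Foxa1 and Foxa2 encode closely related forkhead pioneer factors of endoderm, and they differed in opposite directions. Foxa1 lay at percentile 95.4 on FULA 1, 77.4 on saline lung and 77.8 after urethane, with normalised values of 6.07, 3.78 and 3.79. The lungs were within 0.01 of each other and the cell line stood 4.89-fold above saline lung and 4.86-fold above urethane lung. Foxa2 lay at 64.6, 87.9 and 84.2, with values of 3.08, 4.70 and 4.31, so FULA 1 was lower by 1.62 and 1.23 log2 units. The Foxa1 difference exceeded the Foxa2 difference by 3.91 log2 units against saline lung and by 3.51 against urethane lung. Across the 4 other scalings Foxa1 stayed between 1.97 and 3.76 and Foxa2 between -2.18 and -0.38 against saline lung, so neither sign turned. Against urethane lung Foxa1 ran from 1.87 to 3.68 and Foxa2 from -1.61 to -0.07. With a common median Foxa2 thus hardly differed from urethane lung.

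Gata6, a zinc finger factor of endoderm and of alveolar epithelium, was within 2-fold of both lungs. It lay at percentile 86.7 on FULA 1, 82.4 on saline lung and 81.2 after urethane, with normalised values of 4.69, 4.15 and 4.05. The differences of 0.54 and 0.65 placed FULA 1 higher in both comparisons, though the 4 other scalings spread the first from 0.33 to 2.19. Foxp2, a forkhead repressor of distal epithelium, was near or below the background mark on each array. It lay at percentile 45.1, 31.8 and 45.6, against marks at 41.8, 50.5 and 51.1 in the same array order. It was thus above the mark on FULA 1 and not on either lung, and its urethane value was shared exactly by 833 other probe sets. No size is given for its differences.

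Sox2 and Sox9 encode high mobility group factors that mark the proximal and distal ends of the branching lung epithelium, and Sox9 is also a factor of cartilage. Sox2 lay at percentile 65.7 on FULA 1, 88.3 on saline lung and 88.9 after urethane, with normalised values of 3.15, 4.75 and 4.80. The lungs were alike and the cell line was lower by 1.60 and 1.66 log2 units. Sox9 lay at 82.8, 69.9 and 44.2, with values of 4.32, 3.34 and 2.20, so all 3 arrays differed in rank and the urethane value was below the background mark. FULA 1 was 1.98-fold above saline lung, just short of the 2-fold rule, and against urethane lung the log2 difference was 2.13, of which at least 1.88 stands when the lung value is held at the mark. The Sox9 difference exceeded that of Sox2 by 2.59 log2 units against saline lung. Sox2 stayed between -2.15 and -0.32 and Sox9 between 0.67 and 2.51 against saline lung over the 4 other scalings.

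Cebpa encodes a leucine zipper factor needed for alveolar type II maturation. It lay at percentile 61.3 on FULA 1, 85.4 on saline lung and 89.9 after urethane, with normalised values of 2.88, 4.43 and 4.92. The cell line was lowest, by 1.55 log2 units against saline lung and 4.12-fold against urethane lung. Hopx, a homeodomain-only protein that binds no DNA itself and marks alveolar type I cells, lay at 41.5, 93.3 and 89.3, with values of 1.95, 5.49 and 4.85. Its FULA 1 value was under the background mark, so the 11.6-fold difference from saline lung, -3.54 in log2, is at least 3.53 in size when held at the mark, and the 7.47-fold difference from urethane lung is at least 2.89. Tbx5, a T-box factor of lung and heart mesoderm, was likewise lowest on FULA 1, with percentiles of 40.7, 89.3 and 89.9 and values of 1.93, 4.88 and 4.92. The FULA 1 value was again under the mark, and the differences were -2.94 and -2.99, at least 2.91 and 2.96 in size. Under the 4 other scalings the difference from saline lung stayed between -4.74 and -3.16 for Hopx and between -4.10 and -2.49 for Tbx5; with Foxa1 these were the members that kept a difference of 2-fold or more from saline lung under each.

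Sizes can be read against the disagreement between probe sets of a single gene. Among genes read by a pair of probe sets, both past the floor, the median gap between their FULA 1 minus saline lung differences was 1.05 log2 units over 378 pairs, and the 90th percentile was 2.92. Both probe sets had the same sign in 60.3% of these pairs, in 59.1% against urethane lung and in 53.7% between the lungs. The differences of 7 of the 10 members were larger than that median gap, and those of 2, Hopx and Tbx5, were larger than the 90th percentile. Against urethane lung, 8 exceeded the median gap of 1.00 and 2, again Hopx and Tbx5, the 90th percentile of 2.69. Each member rests on 1 probe set, so no such check exists for the members themselves.

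**Figure D2:**
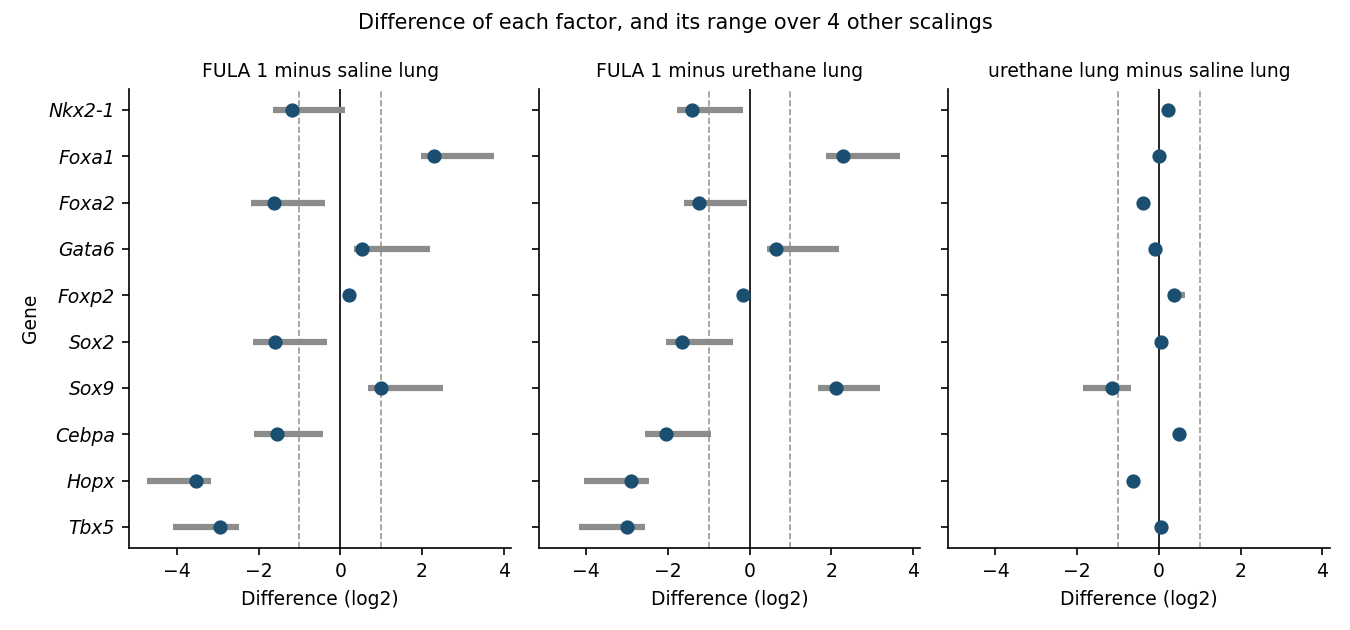
Differences in normalised log2 value for each of the 10 genes in the 3 comparisons, as points with no replicates; the bars span the values under 4 other scalings and are not errors, and dashed lines stand at 2-fold. Foxa1 lies on the positive side and Hopx and Tbx5 far on the negative side in both FULA 1 comparisons, and the bar of Nkx2-1 reaches past 0 against saline lung.

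Urethane lung against saline lung asks whether the factors differed 1 week after the carcinogen. Of the 10 members, 0 were at least 2-fold higher and 1, Sox9, was at least 2-fold lower. Among 12519 genes past the floor, 3.27% were higher and 1.31% lower by that rule, and the median over the 10 members was 0.03, against -0.06 over all genes. Sox9 differed by -1.14, and by at least 0.89 in size when its urethane value is held at the background mark, which is less than 2-fold. Over the 4 other scalings it ran from -1.86 to -0.69, and it was under 2-fold in 3 of them. The median gap between paired probe sets was 0.43 in this comparison over 315 pairs and the 90th percentile was 1.17, just above the size for Sox9. Next in size were Hopx at -0.64 and Cebpa at 0.49, both under 2-fold, and Foxa1, Sox2 and Tbx5 differed by 0.01, 0.05 and 0.05.

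Markers of tissues that also use Sox9, Hopx or Tbx5 are given beside these values. Of 12 cartilage genes, 0 were 2-fold apart between the lungs and their median difference was -0.23. Under the 4 other scalings up to 2 of them were lower in urethane lung. Col2a1, the main collagen of cartilage and a SOX9 target, differed by -0.19, and Acan, the cartilage proteoglycan, was below the mark on both lungs. Acan was higher in FULA 1 than in saline and urethane lung by 4.25 and 4.17 log2 units, taken from these lung values below the mark. It was the 1 cartilage gene higher in FULA 1 by the rule, and 7 and 3 of the 12 were lower. The all-gene shares were 22.6% higher and 22.0% lower against saline lung, and 22.1% and 19.5% against urethane lung. The 12 cartilage values summed to 35.0 on saline lung, 33.0 on urethane lung and 26.8 on FULA 1, with 4 of the genes below the mark on both lungs. Of 12 cardiac muscle genes, 2 were at least 2-fold lower in urethane lung, Myl7 at -1.34 and Nppa at -1.01, both atrial. The all-gene share lower was 1.31%, and the median of the cardiac genes was -0.68. Nppa ran from -1.29 to -0.77 under the 4 other scalings, and the number of cardiac genes lower from 1 to 4. The summed cardiac values were 49.0 and 41.6, against 23.4 on FULA 1. The part of heart or cartilage tissue in the lung values of Tbx5, Gata6, Hopx and Sox9 was not tested.

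**Figure D3:**
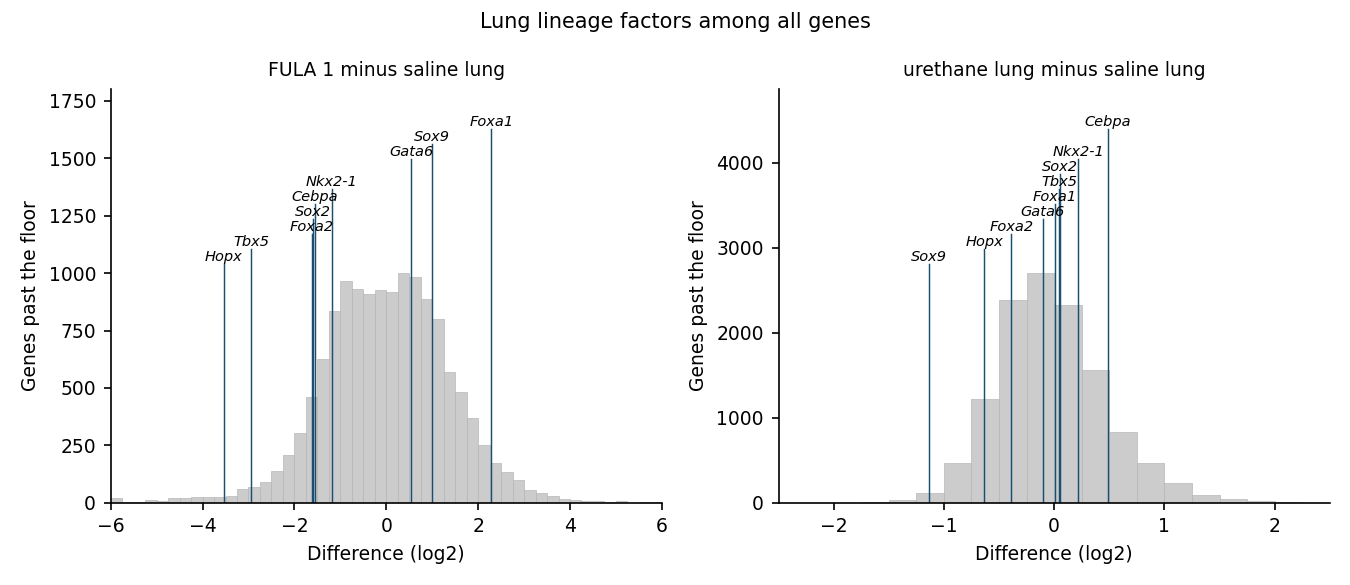
Histograms of the difference in normalised log2 value over all genes past the floor (grey, counts of genes in bins of the horizontal axis) with a line for each member past the floor, for FULA 1 minus saline lung and for urethane lung minus saline lung; the horizontal axes end at 6 and 2.5 log2 units on either side, and line heights only separate the labels. Hopx at -3.54 and Tbx5 at -2.94 lie in the left tail of the first, and Sox9 at -1.14 is the leftmost member in the second.

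Other members of the same gene families were then read by the same rule, from lists of 54 measured genes. In FULA 1 against saline lung, 1 was higher and 15 lower by the rule, with a median of -0.66, beside all-gene shares of 22.6% and 22.0%; 40 of the 54 passed the floor. Against urethane lung 1 was higher and 15 lower, with a median of -0.70, beside all-gene shares of 22.1% and 19.5%. Between the lungs 0 were higher and 1 lower, with a median of -0.15, beside shares of 3.27% and 1.31%. Under the 4 other scalings the number higher against saline lung ran from 0 to 5 and the number lower from 15 to 25. The higher gene was Sox4, a factor of progenitor and tumour cells, at 1.00 and 1.17. Gata2, a factor of blood and endothelial cells, was lower at -3.30 and -3.09. Sox7, Sox17 and Sox18, factors of endothelium, were lower by at least 2.12, by 1.71 and by at least 4.24 log2 units against saline lung. The other Sox gene lower by the rule there, Sox14, differed by -2.95 against saline lung and -2.47 against urethane lung. The 8 endothelial markers, Sox17 among them, were all lower than in saline lung, with a median of -4.18.

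The T-box genes of lung mesenchyme were lower in the cells than in lung, as was Tbx5. Unlike Tbx5, Tbx3 was above the background mark on FULA 1, at percentile 71.2. Tbx2, Tbx3 and Tbx4, which pattern lung mesoderm, differed by -3.26, -2.44 and -2.85 against saline lung and by -2.99, -2.85 and -2.13 against urethane lung. Tbx1 was lower in FULA 1 by 1.93 and was the family member at least 2-fold lower in urethane than in saline lung, at -1.03, and from -1.36 to -0.75 under the 4 other scalings. Of 12 fibroblast markers, 7 were lower in FULA 1 than in saline lung and 1 higher, beside all-gene shares of 22.0% and 22.6%. The summed values of these markers were 30.1 on FULA 1 against 58.5 and 59.2 on the lungs. Tcf21, a mesenchymal factor, and Col1a1 were lower by at least 3.78 and by 3.61. Among the other families, Cebpb, an inflammatory leucine zipper factor, was lower by 1.88 and Nkx2-5, the cardiac homeodomain factor, by 2.19. Foxa3, Foxp1 and Foxp4 were under 2-fold, at 0.10, -0.42 and 0.71, with the median of the 4 other Foxa and Foxp genes turning sign between scalings.

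Genes that NKX2-1 and FOXA factors are known to switch on in lung had a larger median difference than the factors, from a higher lung level. On saline lung their mean normalised value was 6.78, against 4.18 for the 10 members, with the background mark at 1.96 on FULA 1. The members could therefore fall less before reaching background, so the sizes are not directly comparable. Of 20 such genes measured, 16 were lower by the rule in FULA 1 than in saline lung and 1, the protease gene Ctsh at 1.61, was higher, with a median of -4.50 that stayed between -5.99 and -4.36 under the 4 other scalings. Against urethane lung 18 were lower and 0 higher, with a median of -4.41. The all-gene shares were 22.0% lower and 22.6% higher against saline lung, and 19.5% and 22.1% against urethane lung. Scgb1a1 differed by -10.58 and at least 9.89 in size, Sftpc by -8.83, Cxcl15, an epithelial chemokine, by -6.91 and at least 6.45, and Ager, the type I cell receptor, by -5.21. Abca3, the lipid transporter of surfactant storage, was 0.78 above saline lung and 1.44 below urethane lung, the latter turning to 0.07 above with a common median, and was the 1 gene of the list at least 2-fold apart between the lungs, at 2.23. Most of these genes are also markers of alveolar or club cells. Of those markers, 10 of 12 type II, 9 of 12 type I and 8 of 8 club genes were lower in FULA 1 than in saline lung. Hopx is on the type I list, where 1 gene, Aqp5, was higher, by 2.49. The part of cell composition was not tested.

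Other lung epithelial regulators were mixed. Of 35 measured, 6 were higher and 11 lower in FULA 1 than in saline lung, beside all-gene shares of 22.6% and 22.0%, with a median of -0.60 that turned to 0.16 when arrays were only shifted to a common median. Id2 and Id1, inhibitors of basic helix-loop-helix factors, were higher by 1.94 and 1.52, Smad3, a TGF-beta effector, by 1.52, and Klf5, an epithelial zinc finger factor, by 1.32. Irx1, an Iroquois homeobox gene, was lower by 3.01, and Foxj1, the master factor of ciliated cells, by 2.41, at least 2.12. Nfia, a nuclear factor I gene, was at -1.42, with a sign that turned to 0.03 under the common median. Against urethane lung 6 were higher and 13 lower, beside all-gene shares of 22.1% and 19.5%. Between the lungs 0 were in either direction, beside shares of 3.27% higher and 1.31% lower.

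Foregut and gut regulators, the identities that neighbour lung in endoderm, were above the background mark for 14 of 17 measured genes on FULA 1, 10 on saline lung and 8 after urethane. Over all 22180 genes, 12913, 10985 and 10838 were above it in the same array order. The median percentile of the list was 55.1, 57.2 and 49.4. Of the 17 genes, 3 were higher in FULA 1 than in saline lung and 1 lower, beside all-gene shares of 22.6% and 22.0%. The median difference was -0.21 and turned to 0.12 under 1 of the 4 other scalings. Onecut2, a factor of liver and endocrine endoderm, was higher by 2.67, Pax9, a factor of foregut pouches, by 2.05 and at least 1.49, and Hnf4a, a factor of gut and liver, by 1.38 and at least 1.28. Isl1 differed by -1.45, at least 0.77 in size. Against urethane lung 4 were higher and 2 lower, beside all-gene shares of 22.1% and 19.5%. Between the lungs 0 were in either direction, beside shares of 3.27% higher and 1.31% lower.

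Signals that specify and branch the lung included 23 measured genes, of which 5 were higher and 6 lower in FULA 1 than in saline lung, with a median of -0.70. These counts stand beside all-gene shares of 22.6% higher and 22.0% lower and are no result about the list. The growth factor gene Bmp4 was higher by 1.75 and the FGF feedback inhibitor Spry2 by 1.53. Aldh1a2, a retinoic acid synthetic enzyme, was lower by 2.25 and at least 2.02, and Fgf7, a mesenchymal ligand of epithelial FGF receptors, by 2.16 and at least 1.71. Against urethane lung 5 were higher and 8 lower, beside all-gene shares of 22.1% and 19.5%. Between the lungs, where the shares were 3.27% higher and 1.31% lower, Fgfr3, an FGF receptor, was higher after urethane by 1.33. Among 17 measured cofactors and partners of the members, 4 were higher and 2 lower against saline lung, beside all-gene shares of 22.6% and 22.0%. Their median was 0.02 and lay between -0.23 and 1.15 under other scalings. Cited2, a coactivator adaptor, was higher by 2.70 and Zfpm2, the FOG2 partner of GATA factors, by 2.52, and Wwtr1, the coactivator TAZ that binds NKX2-1, was lower by 1.15. Against urethane lung 5 of the cofactors were higher and 2 lower, and between the lungs 0 were in either direction. The all-gene shares are those given above for these comparisons.

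**Figure D4:**
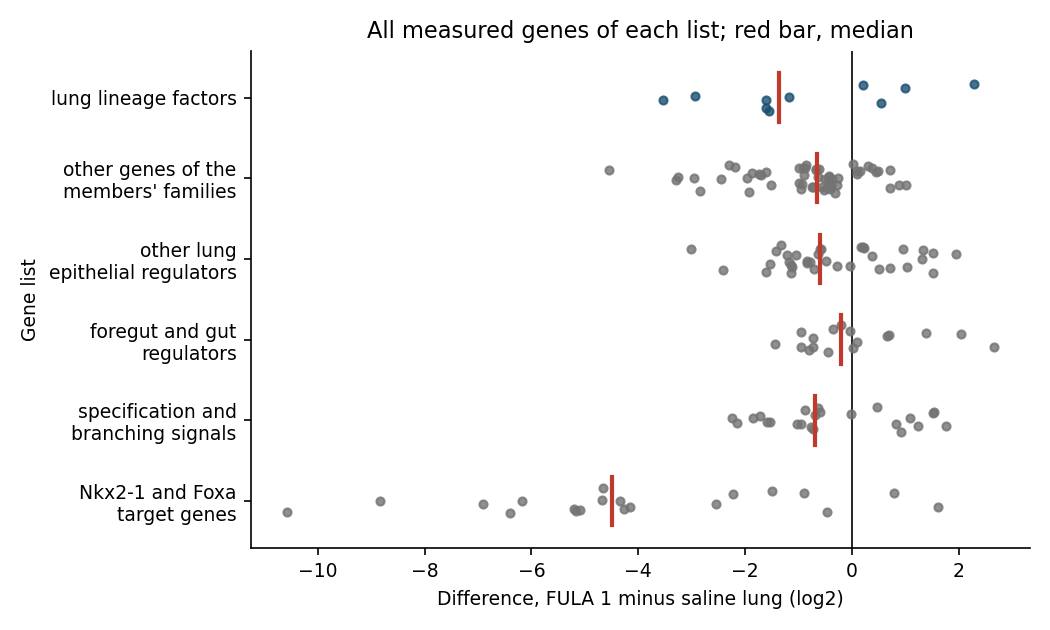
Difference in normalised log2 value, FULA 1 minus saline lung, for all measured genes of the 10 members, of the other family genes and of 4 lists of related genes (cofactors not drawn), 1 point per gene, with a red bar at each median. The medians run from -4.50 for the NKX2-1 and FOXA target genes to -0.21 for the foregut and gut regulators, with the members at -1.37.

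Nkx2-1 and Foxa1 lie on chromosome 12 with 5 protein-coding genes between them in the RefSeq order for GRCm38.p6, of which 3 were measured, and they differed in opposite directions. Next to Nkx2-1, Nkx2-9, a homeobox relative, differed by -1.51 against saline lung and -0.70 against urethane lung, and Mbip, a signalling protein gene on its other side, by 0.76 and 0.32. Farther along towards Foxa1, Pax9 differed by 2.05 and 1.84, and Slc25a21, a mitochondrial carrier gene, by 1.89 and 1.84, of which at least 0.66 and 0.68 stand at the background mark. The Foxa1 minus Nkx2-1 gap was 3.48 log2 units against saline lung and 3.69 against urethane lung. No source used here names the array's build, so only the order of genes is used.

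By likeness of percentile on the 3 arrays, Nkx2-1 was nearest to Gas2l1 and Ier5, which stayed within 0.48 and 0.60 percentile points of it on every array. Foxa1 was nearest to Hacd2 and Ptpra, within 0.92 and 1.22 points, and Sox2 to Irx2 and Nkx1-1, within 0.86 and 1.26. Hopx was nearest to Tyrobp, a myeloid adaptor gene, and Tbx2, within 1.11 and 1.66 points, and Tbx5 to Fstl1 and Stard8, within 1.94 and 2.13. Sox9, with its low urethane rank, had no gene so close: the nearest were Xpo5 and Cenpa, within 3.59 and 3.87 points. With 3 arrays such likeness is a description, which also rests on how bright each probe is; 10 genes lay within 2 points of Nkx2-1.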

How the data were processed

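Each of 3 RNA samples was read on 1 array. Per the labels, RNA was isolated with Trizol followed by spin columns and then labelled with biotin. The authors deposited log2 values for 41345 probe sets. The submitters' processing notes name RMA, and the series' design text names GeneSpring GX 12.5. Its background setting, annotation and set of arrays are unknown here (not given in the sources used). Each of the 3 deposited columns entered; there were 0 columns of other samples. Platform annotation gave 23521 probe sets 1 symbol, 1814 several and 16010 none; 23328 matched RefSeq, giving 22180 genes, 1082 of them as the mean of several probe sets. Quantile normalisation took the mean of the 3 sorted columns as target and gave tied values their mean rank.

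No order of levels among the members was read, since probes differ in brightness; percentiles of different genes were set side by side only to find genes of like pattern. Arrays bear no counts, and their number limits the precision. The size rule is 2-fold with the higher value at or above the floor; "at least" sizes hold the lower value at the olfactory mark. The members and lists were chosen with earlier results of these data known. Named genes were all members, family genes past the size rule, the 2 highest and 2 lowest of each other list against saline lung, a few fixed markers, and the 2 genes nearest each member in percentile; some were left out for room. Pax9, Nkx2-9, Mbip and Slc25a21 were also named for position, and Abca3, Fgfr3, Id1, Smad3, Klf5, Tcf21, Col2a1, Sftpb and further examples after their values were seen. Of 314 list entries, 13 were not analysed here. The steps were tested on simulated data. Python 3.11.15, numpy 2.4.6, pandas 2.3.3, scipy 1.17.1, statsmodels 0.14.6 and matplotlib 3.10.9 were used.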

Additional observations from a re-analysis of the deposited data

How the results depend on the processing

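With 1 array per group no sample could be left out, and no setting gives an error. No paired analysis was possible because no group has a second array. Of 210 member differences under other settings, 21 had the opposite sign: 17 with the deposited values, and 4 elsewhere, which were Nkx2-1 against saline lung and Gata6 between the lungs with a common median, and Foxp2 against saline lung and between the lungs with values held at the mark. Of these, 14 had met the 2-fold rule. Of the counts of members 45 stayed within 1.5 times and 21 did not. The deposited values, whose median over all genes is displaced by 4.91, 3.77 and 1.15 log2 units in the 3 comparisons, gave 10 members higher and 0 lower in FULA 1 than in either lung, and 6 higher and 0 lower in urethane than in saline lung. There the differences from saline lung became 5.00 for Nkx2-1, 4.51 for Foxa2, 4.56 for Sox2, 1.73 for Hopx, 2.40 for Tbx5 and 4.46 for Cebpa, those from urethane lung 3.57, 3.67, 3.33, 1.29, 1.19 and 2.80 in the same order, and Sox9 between the lungs became 0.45. With arrays shifted to a common median, each difference named here was again negative, except that of Nkx2-1 from saline lung. Arrays shifted to a common median gave 3 members higher and 2 lower against saline lung, with Nkx2-1 at 0.12, and 3 higher and 2 lower against urethane lung. Against saline lung, 2 members were higher with the FULA 1 quantiles as target, with the quantiles of the compared pair, and at 1.5-fold, and 2 were lower at 4-fold; against urethane lung 3 were lower at 4-fold. Between the lungs 0 were lower with a common median, pair quantiles, a lowess curve, a 4-fold rule, a floor at the 75th percentile, or values held at the mark (an alternative chosen after seeing the data), and 2 were lower at 1.5-fold. The cause of these moves and turns was not tested.

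Over all genes, the counts higher and lower against saline lung were 3073 and 2994, and became 21703 and 20 as deposited, 7058 and 1785 with a common median, and 2012 and 3317 with a lowess curve. Against urethane lung they were 2930 and 2581, and became 21603 and 22, 7154 and 1558, and 2156 and 2942. Between the lungs they were 409 and 164, and became 5180 and 0 as deposited, 215 and 203 with a common median, 979 and 897 with the FULA 1 quantiles, 183 and 51 with pair quantiles, and 244 and 34 with a lowess curve. At 1.5-fold they were 1373 and 1340, and at 4-fold 17 and 1. Signal near or below the olfactory mark limits Foxp2 on all arrays, Sox9 on urethane lung, and Hopx and Tbx5 on FULA 1.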
